A study of Mus musculus with 25 samples.

Results

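Stimulated regulatory T cells (Treg) labelled c-RelKO and Treg labelled p65KO, each lacking 1 subunit of NF-kB, were compared with stimulated WT Treg. The knockout libraries were chosen from the labels alone, as the stimulated Treg libraries of a single knockout, and each genotype has 1 such library. The 2 knockout libraries and the 2 stimulated WT Treg libraries they were set against make 4 of the 25 libraries of the series. All came from spleen and lymph node of C57BL/6 mice, and the cells had been cultured with IL-2 and antibodies to CD3 and CD28 (2 µg/ml) during 3 h, so IL-2 was present in every stimulated culture. The labels give the genotypes c-RelKO, p65KO, p65 c-Rel DKO (loss of both) and WT, without alleles, deleter strain or age. WT Treg stim replicate 2 has a library number in the same run of numbers as both knockouts, and replicate 1 has an earlier one. No label says that such runs are batches. In addition, 9 resting Treg libraries of the same genotypes and 2 DKO Treg stim libraries with their 2 resting partners were set beside them.

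NF-kB is a family of dimeric transcription factors that inhibitors of the IkB family hold in the cytoplasm. Signals from the T cell receptor and CD28 degrade these inhibitors, and dimers with c-Rel (gene Rel) or p65 (gene Rela) enter the nucleus and bind kB sites. c-Rel is largely restricted to lymphoid and myeloid cells and is needed for normal numbers of Treg, where it acts on the gene of Foxp3, the factor that defines the lineage. p65 is expressed in nearly all cells. Treg keep the inflammatory cytokine genes of conventional T cells silent, and a few early genes, among them the Egr and Nr4a families, are switched on within an hour of receptor signals.

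Levels are FPKM, the fragments of a gene divided by the length of its transcript in kilobases and by the mapped fragments of the library in M, and differences are of log2(FPKM + 1), which understates the change of genes with low FPKM. A gene is called past the fold when it differs by at least 1 on this scale, a fold of 2, in the same direction from both WT libraries. With 1 library per knockout no difference has a replicate check and no p-value is given: the spread of the WT libraries stands in for replicate error. Over the 10199 genes compared, those with a mean of at least 1 FPKM in the 4 libraries, WT Treg stim replicate 1 was past the fold of 2 from replicate 2 at 205 genes (2.01%), 140 higher (1.37%) and 65 lower (0.637%). WT values below are given for replicate 2 and then replicate 1.

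Implied depth was 34.05 M fragments for c-RelKO, 40.8 M for the p65KO library, 37.6 M for WT replicate 2 and 17.2 M for WT replicate 1. Xist, an RNA of female cells, was at 66.0 FPKM in WT replicate 1 and at most 0.0129 FPKM in the other 3, which had 67.2 to 108 FPKM of the Y-linked Ddx3y, so WT replicate 1 also differs in sex. T cell identity genes were high in all 4 libraries, with summed levels over 13 genes of 3816 FPKM in c-RelKO, 3540 FPKM in the p65KO library and 3254 and 3384 FPKM in WT. Summed B cell markers (11 genes) were 3.92 FPKM in c-RelKO, with 3 genes at 0, 6.996 FPKM in the p65KO library, with 1 at 0, and 5.53 and 4.92 FPKM in WT. Of the NK and CD8 T cell markers (11 genes), the p65KO library held 84.4 FPKM in all, against 19.0 FPKM in c-RelKO and 20.6 and 14.9 FPKM in WT.

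The targeted genes were looked at first. Rel (chr11:23641729-23670970, build mm9) was at 1.91 FPKM in c-RelKO Treg after stimulation, against 283 and 298 FPKM in WT, 6.61 and 6.69 lower. Rela (chr19:5637490-5648130) was at 74.1 FPKM in the library labelled p65KO, against 118 and 126 FPKM in WT. That is 0.67 and 0.76 lower, not past the fold, and the sources used here do not name the exons the allele lacks, so Rela checks the genotype only weakly. The 3 resting p65KO libraries had 58.0, 69.3 and 79.8 FPKM of Rela, against 64.9, 99.1 and 124 FPKM in their WT partners. Foxp3 was at 245 FPKM in c-RelKO, 195 FPKM in the p65KO library and 295 and 336 FPKM in WT, while the DKO Treg stim libraries had 6.34 and 8.31 FPKM.

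The stimulation label of the p65KO library was checked with 34 early response genes of the T cell receptor, and the check went against it. Between stimulated and resting libraries of the same number run, 3 of the 34 were past the fold higher in c-RelKO and 3 in WT replicate 2, with medians of 0.34 and 0.29. In the library labelled p65KO Treg stim 0 of 34 were higher and 6 were lower than in p65KO Treg replicate 3, 8 differed upwards at all, and the median was -0.38. Across all genes those pairs had 0.853% (c-RelKO), 0.765% (p65KO) and 0.275% (WT) of genes past the fold higher, and 2.36%, 1.62% and 0.108% lower. The resting c-RelKO partner, replicate 2, had 13324 FPKM of the globin gene Hba-a1 and 1816 FPKM of summed myeloid markers. The part of such cells in the c-RelKO pair was not tested. The WT pair of the earlier run had 1 of 34 higher, none lower and a median of 0.18, with 0.206% of all genes higher and 0.0784% lower. The early genes were already abundant in the resting partners: they summed to 7286 FPKM in WT Treg replicate 4 and 8904 FPKM in replicate 3, against 8838 and 9978 FPKM in stimulated WT, and the gain after 3 h was small in WT as well. Resting WT Treg replicates 1 and 2 had 1731 and 7302 FPKM, so replicate 1 was not like the others. In DKO Treg the same genes gained far more, 25 and 28 of 34, with medians of 1.87 and 1.93. They began lower there, at 3103 and 2127 FPKM in resting DKO, than in WT Treg replicates 3 and 4. The share over all genes was not computed for the DKO pairs.

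Over all genes, 7 were past the fold higher after stimulation in both WT pairs: Ccl4, Egr1, Ifng, Il2, Irf8, Plaur and Xcl1, a subset chosen from the WT libraries. In c-RelKO 5 of the 7 were higher after stimulation, and in the p65KO libraries all 7 were lower in the library labelled stimulated, with a median of -2.07. Egr1, an immediate early transcription factor, had 29.5 FPKM in the library labelled p65KO Treg stim and 178 FPKM in p65KO Treg replicate 3, while p65KO Treg replicates 1 and 2 had 55.4 and 49.8 FPKM. For comparison, stimulated WT Treg had 116 and 128 FPKM of Egr1 and resting WT Treg replicates 4 and 3 had 28.9 and 41.4 FPKM. Irf8, an interferon-induced factor that receptor signals also raise, had 15.5 FPKM in the library labelled stimulated and 69.5 FPKM in p65KO Treg replicate 3, against 39.0 and 28.9 FPKM in stimulated and 10.7 and 12.2 FPKM in resting WT. The same order held for Il2, with 0.162 FPKM in the library labelled stimulated and 3.87 FPKM in p65KO Treg replicate 3, and for Ccl4, with 3.13 and 30.2 FPKM in the same libraries. Measured against resting WT Treg replicate 4 in place of resting p65KO, the 7 genes, which had been picked as low in resting WT, had a median of 0.08 and 1 was past the fold. The 34 early response genes lay below resting WT too, with a median of -0.41, 3 lower and 0 higher against replicate 4, and a median of -0.61, 9 lower and 0 higher against replicate 3. An effect of the genotype on these genes, a library of unstimulated cells and an exchange of this library with p65KO Treg replicate 3 cannot be told apart with these files. An exchange would change the meaning of every value of both libraries. The library is therefore called the library labelled p65KO throughout, and values of it are also given beside resting WT. p65KO Treg replicate 3 carries the same doubt, so shared counts are also given without it. In summed myeloid markers it held 841 FPKM, against 152 FPKM in the library labelled stimulated and 90.0 FPKM in WT Treg replicate 4. The part of such cells in the label check was not tested.

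**Figure D1:**
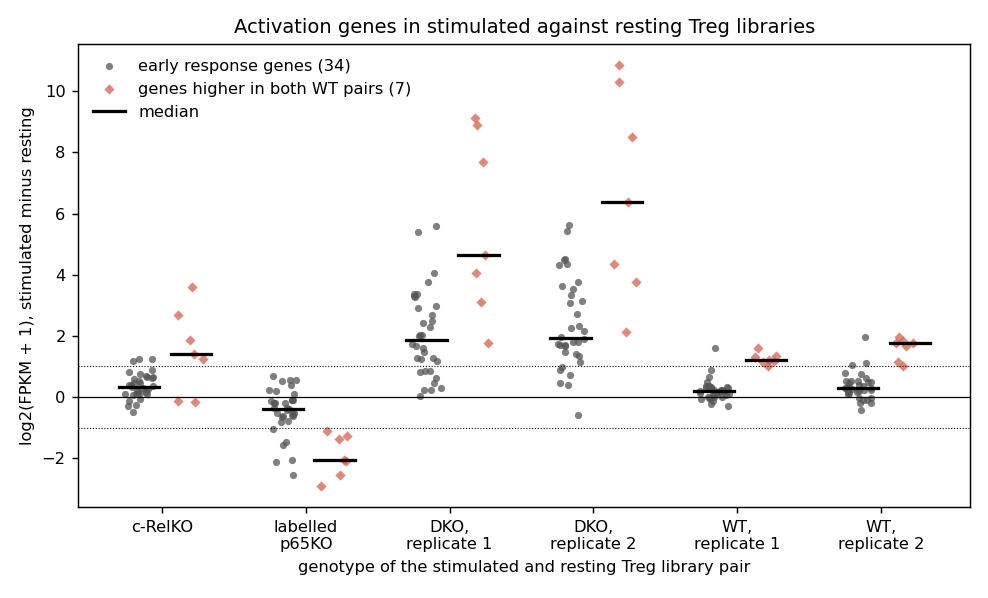
Difference of log2(FPKM + 1) between stimulated and resting libraries of the same genotype and number run, for 34 early response genes (grey points), with medians as black lines; red diamonds are the 7 genes past the fold higher in both WT pairs, and dotted lines mark differences of 1 and -1. The median of the pair labelled p65KO is -0.38, the lowest of the 6 pairs, and all 7 red points of that pair lie below -1; the other 5 pairs have medians of 0.18 to 1.93.

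c-RelKO Treg differed from both WT libraries at 253 genes (2.48%) after stimulation, 64 of them higher (0.628% of the genes compared) and 189 lower (1.85%). The higher genes were led by cytokines: of the 12 with the largest difference, 9 are cytokines and 1 a chemokine. The lower genes were led by Rel itself, the nuclear RNAs Neat1 and Malat1 and the survival gene Bcl2l1. Against WT replicate 1 alone the counts were 162 and 432, and against replicate 2 alone 84 (0.824%) and 274 (2.69%), so the requirement of both sets their size. All genes together had medians of -0.07 and -0.04, beside -0.05 between the WT libraries.

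Il13, Il4 and Il5, type 2 cytokines that drive allergic and anti-helminth responses, were above WT. Il13 (chr11:53444825-53448204, mm9) had 40.6 FPKM in c-RelKO, with a Cufflinks interval of 38.4 to 42.8, against 1.85 and 6.49 FPKM in WT. It was 3.87 and 2.47 higher. Il4, its neighbour on the chromosome and the factor that makes B cells switch to IgE, had 56.3 FPKM in c-RelKO, against 5.48 and 6.87 FPKM in WT, a difference of 3.15 and 2.87. Il5, which supports eosinophils, had 14.2 FPKM, against 0.866 and 2.97 FPKM in WT. Il13 and Il5 were the cytokines in which the WT libraries differed most from each other, and c-RelKO was above both. Areg, a further cytokine compared, went the other way, with 34.7 FPKM in c-RelKO, against 58.1 and 75.3 FPKM in WT. Its differences of -0.73 and -1.10 were not past the fold from both.

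Cytokines of the type 17 group, which act on epithelium and recruit neutrophils, were below 3 FPKM in WT Treg. Il17f had 17.0 FPKM in c-RelKO, against 0.724 and 0.548 FPKM in WT, 3.38 and 3.54 higher. Il17a, which forms dimers with it, had 20.2 FPKM, against 2.85 and 1.28 FPKM in WT. Il22, which acts on epithelial barriers, had 22.1 FPKM, against 0.912 and 0.469 FPKM in WT, 3.59 and 3.97 higher. Il21, a product of follicular helper and type 17 cells, had 10.9 FPKM in c-RelKO, against 0.368 and 0.452 FPKM in WT.

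Ifng, the type 1 cytokine that activates macrophages, had 97.8 FPKM in c-RelKO, against 7.72 and 12.5 FPKM in WT, 3.50 and 2.87 higher. Il2, the T cell growth factor that Treg consume but normally do not make, had 16.5 FPKM, against 1.44 and 2.65 FPKM in WT, 2.84 and 2.26 higher. Thus genes of types 1, 2 and 17 were above WT in the same library. Of 19 cytokine genes compared, 10 were past the fold higher and none lower (Il3 is the one not yet given), with a median of 1.74, against -0.07 over all genes and 0.01 for the cytokines between the WT libraries. The 19 are those of 23 cytokine genes that passed the filter, whose mean includes c-RelKO. Il17f, Il21 and Il22 were below 1 FPKM in both WT libraries, and their c-RelKO values alone bring them past it. The count and the median therefore lean towards higher genes. Il10, an anti-inflammatory cytokine of effector Treg, missed the fold with 107 FPKM in c-RelKO, against 54.8 and 55.1 FPKM in WT, 0.95 and 0.94 higher. A bulk library cannot tell more cytokine-making cells from more RNA per cell. The stimulated DKO libraries had far more of these RNAs, for example 11693 and 13077 FPKM of Il13, 5804 and 15417 FPKM of Ifng and 1237 and 3342 FPKM of Il2, yet only 15.6 and 47.9 FPKM of Il22.

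**Figure D2:**
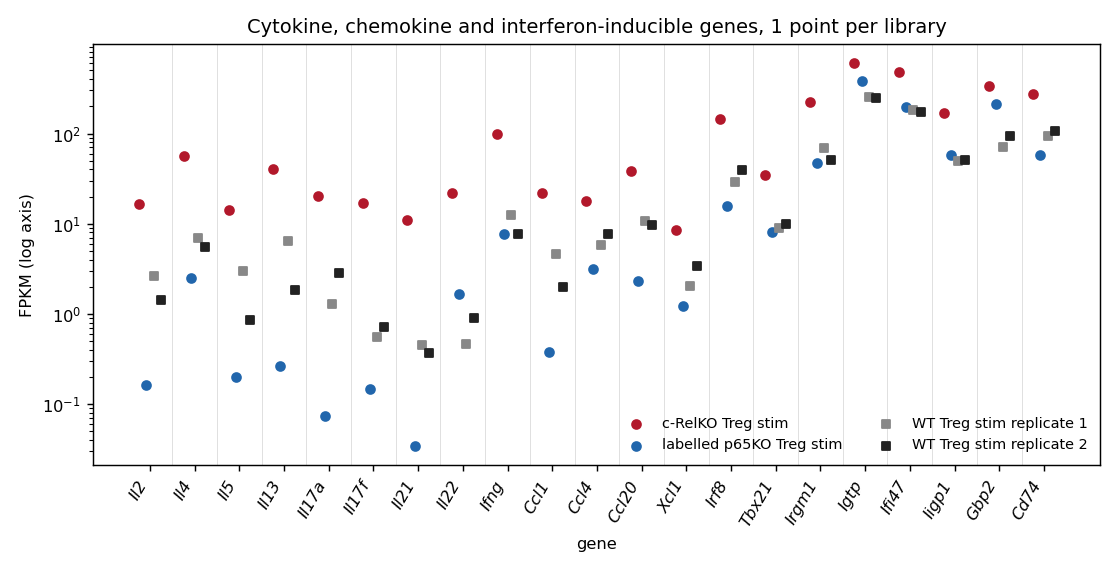
Level in FPKM (logarithmic axis) of 21 cytokine, chemokine, interferon-inducible and MHC class II related genes in the 4 stimulated libraries, 1 point per library. c-RelKO is the highest of the 4 at each gene shown, for Il17f at 17.0 FPKM with WT at 0.724 and 0.548 FPKM; the library labelled p65KO lies below both WT libraries at Il2, Il13 and Ccl20.

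Many of these cytokine genes were above WT before stimulation too. In resting c-RelKO Treg replicates 1 and 2, Il13 had 39.9 and 5.53 FPKM, against 4.499 and 0.308 FPKM in their WT partners, and Il22 had 23.8 and 79.4 FPKM, against 0.423 and 0.536 FPKM. Ifng had 56.7 and 14.2 FPKM in resting c-RelKO, against 5.66 and 1.75 FPKM in WT. Of the 10 cytokines, 9 were past the fold in the first resting pair, 5 in the second and 5 in both (Il4, Il5, Il13, Il22, Ifng); over all genes 6.02% and 2.49% were past the fold higher in these pairs. NK and CD8 T cells also make Ifng, Ccl4 and Xcl1. Their markers summed to 207 and 81.0 FPKM in resting c-RelKO, against 13.6 and 19.1 FPKM in WT, and the part of such cells in the resting values was not tested. In c-RelKO Il17a and Il17f had their highest levels after stimulation. Il17a was at 20.2 FPKM there, and at 1.64 and 0.564 FPKM in resting c-RelKO. Resting c-RelKO replicate 2 stands apart, with 13324 FPKM of the globin gene Hba-a1, 172 FPKM of the myeloid gene Lyz2 and both Xist (7.18 FPKM) and Ddx3y (36.5 FPKM). In stimulated c-RelKO the erythroid markers summed to 7.15 FPKM, against 7.32 and 6.15 FPKM in WT.

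Of 11 T cell chemokine genes, 7 passed the same filter, which includes c-RelKO. Of these, 4 were past the fold higher in c-RelKO and none lower, with a median of 1.10. Ccl1, a ligand of CCR8, had 21.9 FPKM in c-RelKO, against 1.98 and 4.58 FPKM in WT, 2.94 and 2.04 higher. Ccl20, the ligand of CCR6 and a chemokine of type 17 cells, had 38.3 FPKM, against 9.78 and 10.7 FPKM in WT, 1.87 and 1.74 higher. Ccl4, a chemokine of activated T cells, had 17.8 FPKM, against 7.64 and 5.88 FPKM in WT, and Xcl1, which attracts cross-presenting dendritic cells, had 8.47 FPKM, against 3.42 and 2.01 FPKM in WT. At rest Ccl4 and Xcl1 were past the fold in both c-RelKO pairs.

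Interferon-inducible genes formed the second group above WT. Of 27 compared, 7 were past the fold higher, none lower and 25 differed upwards from WT replicate 2, with a median of 0.72, against -0.10 between the WT libraries. The 7 were Irgm1, Igtp, Ifi47, Iigp1, Gbp2, Usp18 and Oasl2. The first 5 are GTPases that interferon gamma induces against intracellular pathogens. Irgm1 (chr11:48678751-48684848, mm9) had 226 FPKM in c-RelKO, against 51.5 and 68.6 FPKM in WT, 2.11 and 1.70 higher. Gbp2 had 336 FPKM in c-RelKO, against 95.0 and 70.5 FPKM in WT, and Iigp1 had 170 FPKM, against 50.5 and 49.4 FPKM in WT. All 3 stand outside the range of WT. Igtp, at 603 FPKM against 245 and 256 FPKM in WT, and Ifi47, at 478 FPKM against 174 and 183 FPKM in WT, were 1.23 to 1.46 higher.

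The GTPases Iigp1, Igtp and Ifi47 did not stand apart at rest. Iigp1 had 18.1 and 32.8 FPKM in resting c-RelKO, against 37.0 and 31.6 FPKM in WT replicates 3 and 4. Igtp had 236 and 332 FPKM in resting c-RelKO, against 241 and 258 FPKM in WT, and Ifi47 had 228 and 209 FPKM, against 183 and 181 FPKM. Of the 7 genes, 1 and 2 were past the fold higher in the resting pairs, and Oasl2 alone in both. Over all 31 interferon-inducible genes, however, the mean log2(FPKM + 1) level was above WT at rest too. It was 4.77 and 4.75 in resting c-RelKO, against 4.15 and 4.25 in WT replicates 3 and 4. After stimulation it was 4.93 in c-RelKO, against 4.26 and 4.15 in WT. The factors Irf8 and Tbx21 were above WT as well. Tbx21 encodes T-bet, which directs type 1 cells, and had 34.3 FPKM in c-RelKO, against 9.93 and 8.93 FPKM in WT, 1.69 and 1.83 higher; resting c-RelKO had 14.1 and 8.73 FPKM, against 4.68 and 3.96 FPKM in WT. Irf8 had 147 FPKM in stimulated c-RelKO, against 39.0 and 28.9 FPKM in WT.

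The promoters of all genes were searched for the letters GAAANNGAAA on both strands (TTTCNNTTTC on the other). These letters are the core of elements that interferon regulatory factors and STAT dimers with IRF9 bind. Of the 47 higher genes with a RefSeq promoter of 250 bases before to 50 after the start, 8 held a match (17.02%), against 3.857% of the 7338 genes compared that had one and 3.993% of all 27025 symbols in the table. Of the genes lower in c-RelKO 5.983% held it. Gbp2, Igtp, Irgm1, Tgtp2 and Il4 were among the 8. Ifi47, Iigp1, Usp18 and Oasl2 were not, for want of a match or of a RefSeq promoter. Tgtp2 is a further interferon-induced GTPase, picked here after its values were seen and hard to separate from its copy Tgtp1, with 164 FPKM in c-RelKO, against 44.8 and 56.0 FPKM in WT. 4 of these promoters are shown because they carry the match nearest to the gene group described; the letters are from RefSeq on GRCm38.p6, 5′ to 3′ on the strand of the gene, and capitals mark the match, which is a description and not a tested site. They lie at chr11:48871371-48871670 (Irgm1, minus strand, overlapping matches), chr11:58199306-58199605 (Igtp, plus), chr11:49064163-49064462 (Tgtp2, minus) and chr3:142620413-142620712 (Gbp2, plus).
Irgm1: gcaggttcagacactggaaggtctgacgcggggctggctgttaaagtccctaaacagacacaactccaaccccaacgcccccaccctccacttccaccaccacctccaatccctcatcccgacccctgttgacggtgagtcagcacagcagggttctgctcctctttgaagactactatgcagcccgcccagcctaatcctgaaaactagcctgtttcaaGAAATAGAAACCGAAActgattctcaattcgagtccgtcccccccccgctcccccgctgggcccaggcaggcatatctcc
Igtp: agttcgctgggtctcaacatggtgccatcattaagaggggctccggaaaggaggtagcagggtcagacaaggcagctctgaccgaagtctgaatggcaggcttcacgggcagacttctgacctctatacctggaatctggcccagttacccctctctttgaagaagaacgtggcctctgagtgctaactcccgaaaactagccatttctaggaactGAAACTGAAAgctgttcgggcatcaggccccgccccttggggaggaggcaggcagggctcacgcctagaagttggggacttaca
Tgtp2: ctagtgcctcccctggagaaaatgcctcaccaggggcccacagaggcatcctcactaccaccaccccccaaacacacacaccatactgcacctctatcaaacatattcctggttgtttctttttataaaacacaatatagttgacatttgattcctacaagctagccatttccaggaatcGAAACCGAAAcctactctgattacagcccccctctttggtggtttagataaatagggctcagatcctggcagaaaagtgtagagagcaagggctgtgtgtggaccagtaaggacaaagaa
Gbp2: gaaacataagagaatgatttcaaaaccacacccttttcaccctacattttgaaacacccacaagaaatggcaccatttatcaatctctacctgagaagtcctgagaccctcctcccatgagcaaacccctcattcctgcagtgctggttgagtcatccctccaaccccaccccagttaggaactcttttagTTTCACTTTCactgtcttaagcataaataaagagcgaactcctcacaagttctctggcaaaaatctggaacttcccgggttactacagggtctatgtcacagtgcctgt

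Genes of MHC class II presentation were the third group, and antigen-presenting cells express them most. Cd74, the invariant chain, had 277 FPKM in c-RelKO, against 107 and 94.7 FPKM in WT, 1.37 and 1.54 higher. H2-Aa, a class II alpha chain, had 20.8 FPKM in c-RelKO, against 9.28 and 6.57 FPKM in WT. Of 6 such genes compared 4 were past the fold higher (also H2-Ab1 and H2-Eb1), and the same 4 were past it in both resting pairs, where H2-Aa reached 44.9 and 472 FPKM in c-RelKO, against 7.06 and 7.76 FPKM in WT. Markers of other cells moved with these resting values: B cell markers summed to 17.0 and 250 FPKM in resting c-RelKO, against 6.54 and 6.51 FPKM in WT replicates 3 and 4, and myeloid markers to 208 and 1816 FPKM, against 62.4 and 90.0 FPKM. B cell markers were no higher in stimulated c-RelKO than in WT, with Cd79a at 0.517 FPKM, against 1.14 and 1.05 FPKM in WT. Summed myeloid markers (17 genes) were 86.2 FPKM in c-RelKO, against 83.2 and 57.7 FPKM in WT. Of the 8 myeloid markers that could be compared 1, Fcer1g, was higher, with 5.97 FPKM in c-RelKO, against 1.57 and 0.394 FPKM in WT. The part of such cells in the class II values was not tested.

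Ly6a, Serpina3g, Serpina3f and Lag3 were also past the fold higher. Ly6a (Sca-1), which interferon induces on T cells, had 337 FPKM in c-RelKO, against 64.1 and 49.1 FPKM in WT, 2.38 and 2.75 higher. Serpina3g, a protease inhibitor of activated T cells, had 74.6 FPKM in c-RelKO, against 16.9 and 18.1 FPKM in WT, and its relative Serpina3f had 9.92 FPKM, against 1.42 and 1.77 FPKM. Lag3, an inhibitory receptor that binds MHC class II, had 22.2 FPKM, against 9.09 and 8.45 FPKM in WT. These genes were also above WT at rest: Ly6a had 219 and 161 FPKM in resting c-RelKO, against 44.2 and 51.8 FPKM in WT, and Serpina3g had 49.1 and 42.3 FPKM, against 15.95 and 17.1 FPKM.

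Below WT, the clearest set was nuclear RNA. Neat1 (chr19:5842302-5845478, mm9), the RNA that scaffolds paraspeckles, had 27.8 FPKM in c-RelKO, against 159 and 231 FPKM in WT, 2.47 and 3.01 lower. Malat1, its abundant neighbour in nuclear speckles, had 54.8 FPKM in c-RelKO, against 249 and 317 FPKM in WT, 2.16 and 2.51 lower. Of 12 transcripts known to be kept in the nucleus, 5 were past the fold lower (also Leng8, Fam193b and Ccnl2), none higher, 0 of 12 differed upwards, and the median was -0.75. All 5 were also past the fold lower in both resting c-RelKO pairs, beside 5.32% and 4.31% of all genes: Neat1 had 17.1 and 27.2 FPKM in resting c-RelKO, against 228 and 168 FPKM in WT replicates 3 and 4. DKO Treg stim had 16.7 and 36.9 FPKM of Neat1. In the library labelled p65KO 2 of the 12 were past the fold lower, Malat1 and Srrm2, and 1 relative to genes of like length. The median of the 12 there was -0.17. The list was chosen with earlier results of these data known, so its counts and their recurrence at rest are no independent evidence. The part of RNA preparation in these values was not tested.

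Bcl2l1, which encodes the survival protein Bcl-xL, had 34.4 FPKM in c-RelKO, against 169 and 81.6 FPKM in WT, 2.26 and 1.22 lower. It is a known NF-kB target and was the only one of 30 NF-kB target genes past the fold lower, while Irf8 and Serpina3g on that list were higher; the list's median was -0.02. DKO Treg stim, which lacks p65 as well, had 179 and 172 FPKM of Bcl2l1, above the c-RelKO value. Lad1, an anchoring filament protein, had 1.11 FPKM in c-RelKO, against 36.6 and 9.95 FPKM in WT, and Ncf1, a subunit of the phagocyte oxidase, had 2.64 FPKM, against 23.97 and 7.42 FPKM in WT. For these 3 genes the WT libraries differed from each other by at least a fold of 2, so the size of the difference depends on which is used. Pisd-ps1, Pisd-ps2 and Gp49a, also among the 12 lowest, have near-identical relatives, and their values are uncertain.

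Receptors of differentiated Treg were split. Klrg1, a marker of terminal effector Treg, had 1.81 FPKM in c-RelKO, against 10.7 and 14.4 FPKM in WT, 2.06 and 2.45 lower. Il1rl1, the receptor of IL-33 on tissue Treg, had 23.9 FPKM, against 58.3 and 84.9 FPKM in WT, and Il18r1 had 24.6 FPKM, against 55.3 and 68.3 FPKM in WT. Of 31 effector Treg genes, 2 were past the fold higher (Lag3 and Tbx21) and 3 lower (Klrg1, Il1rl1 and Tnfrsf8), with a median of -0.35. None of those 3 was past the fold lower in a resting pair: Klrg1 had 24.9 and 11.9 FPKM in resting c-RelKO, against 13.8 and 10.9 FPKM in WT. Il18r1, which is not on that list, was past the fold lower in the first resting pair and not in the second. The broader Treg signature of 39 genes had 1 higher (Gbp2) and 1 lower (Klrg1).

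Other lists held few or no genes past the fold in c-RelKO. None of the 34 early response genes was, with a median of 0.17, nor any of 28 cell cycle genes (0.14), 17 NF-kB inhibitors and feedback genes (-0.21), 20 Myc and nucleolar genes, 17 glycolysis genes, 16 cholesterol synthesis genes or 13 heat shock genes. Beside 0.628% and 1.85% of all genes, a count of 0 in lists of this size is near the background. Among the other subunits, Relb had 141 FPKM in c-RelKO, against 107 and 98.8 FPKM in WT, and Nfkb1 had 591 FPKM, against 542 and 450 FPKM. Nfkb2 had 236 FPKM in c-RelKO, between the 248 and 189 FPKM of WT.

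**Figure D3:**
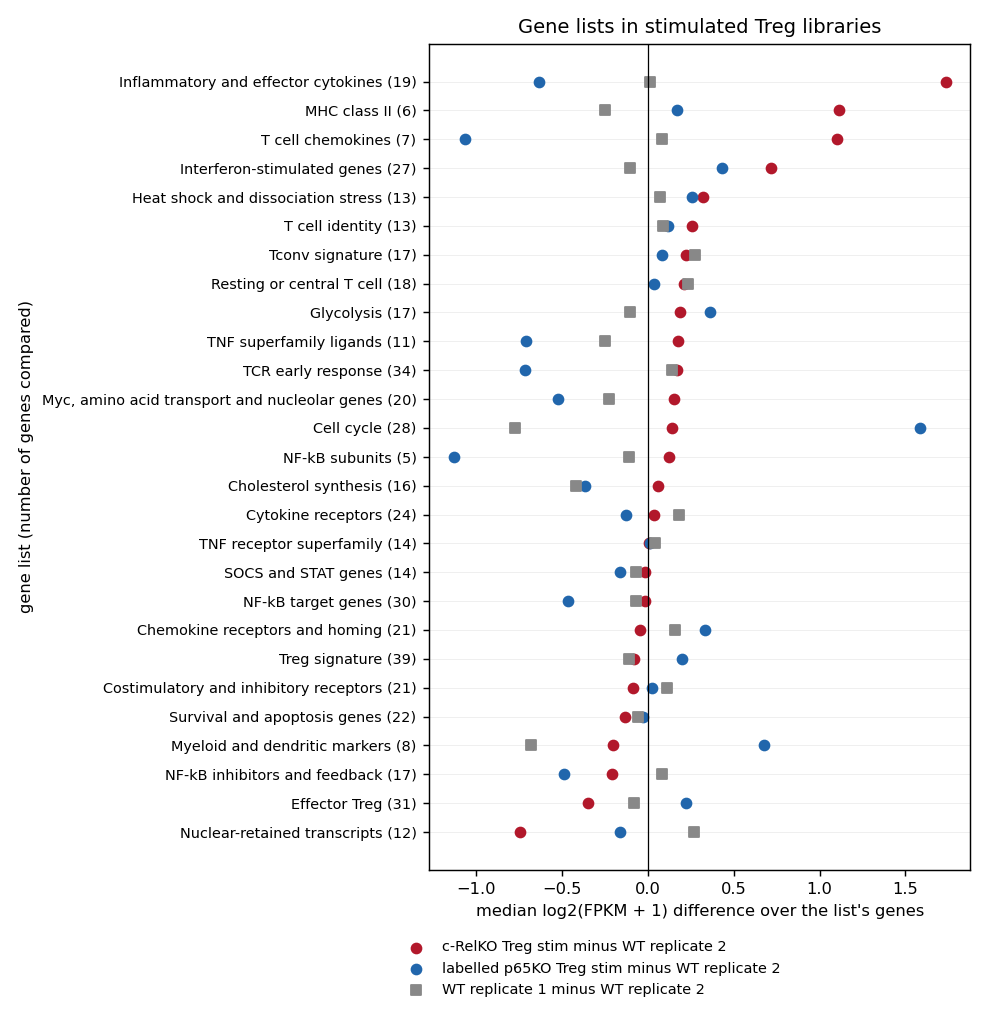
Median difference of log2(FPKM + 1) from WT Treg stim replicate 2 for 27 gene lists with at least 5 genes compared, for c-RelKO, for the library labelled p65KO and for WT replicate 1, ordered by the c-RelKO value. Cytokines are the highest list in c-RelKO at 1.74 and nuclear-retained transcripts the lowest at -0.75; in the library labelled p65KO the cell cycle list is the highest, at 1.59.

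Over all genes past the fold, many c-RelKO differences were also present without stimulation, in pairs that share no library with the stimulated comparison. Of the 64 higher genes, 38 (59.4%) were past the fold higher in the first resting pair, where they made 6.19% of its 614, and 37 (57.8%) in the second, 14.6% of its 254. In both pairs there were 28 (43.8% of the 64), which is 19.3% of the 145 genes higher in both, against 1.42% of all genes. Of the 189 lower genes, 123 (65.1%) were past the fold lower in both pairs, 43.9% of the 280 that were, against 2.75% of all genes. The interferon-inducible GTPases, Klrg1 and Il1rl1 are among the genes outside this overlap.

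The kB motif was searched in the same promoters as GGGNNTTTCC, or GGAAANNCCC on the other strand. It was found in 2 of 47 promoters of genes higher in c-RelKO (4.255%), Ccl20 and Serpina3g. Of the lower genes 4 of 117 held it (3.419%), Bcl2l1 and Rel, the targeted gene, among them. The share was 2.126% for the promoters of genes compared. For the library labelled p65KO it was 5 of 99 of the lower genes (5.051%) and 7 of 292 of the higher genes (2.397%). The Rel and Ccl20 promoters are shown because both genes were lower in the library labelled p65KO, while in c-RelKO Ccl20 was higher. They lie at chr11:23770920-23771219 (Rel, minus strand) and chr1:83116516-83116815 (Ccl20, plus strand) of GRCm38.p6, from RefSeq, with the match in capitals.
Rel: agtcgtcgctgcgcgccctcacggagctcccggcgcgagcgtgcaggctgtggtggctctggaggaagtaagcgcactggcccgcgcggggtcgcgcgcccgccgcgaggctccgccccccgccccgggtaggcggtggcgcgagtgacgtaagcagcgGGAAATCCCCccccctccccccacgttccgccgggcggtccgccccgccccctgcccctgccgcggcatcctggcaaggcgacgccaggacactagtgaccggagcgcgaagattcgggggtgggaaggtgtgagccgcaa
Ccl20: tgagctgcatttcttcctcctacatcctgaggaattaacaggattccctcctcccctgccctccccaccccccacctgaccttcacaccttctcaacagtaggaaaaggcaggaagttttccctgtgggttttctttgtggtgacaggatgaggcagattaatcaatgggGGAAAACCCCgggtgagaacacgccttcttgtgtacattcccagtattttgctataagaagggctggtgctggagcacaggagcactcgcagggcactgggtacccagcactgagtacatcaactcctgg

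The library labelled p65KO differed from both WT libraries at 577 genes (5.66%), 438 higher (4.29% of the genes compared) and 139 lower (1.36%). On the higher side, cell cycle genes were the list with most genes past the fold, and S100a6 and Gzmb were among the largest differences; receptor-induced and NF-kB genes were among the lower ones. With WT replicate 1 alone the counts were 766 and 342, and with replicate 2 alone 542 (5.31%) and 215 (2.11%). All genes together lay 0.15 and 0.17 above WT, and with size factors that remove this shift the split was 316 higher and 235 lower, so that 57.4% were higher in place of 75.9%. Of the 438 higher genes, 316 were past the fold under both scalings, as were all 139 lower ones.

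The library also leaned towards short transcripts. Over the 9234 genes with a known transcript length, the median difference from WT replicate 2 was 0.57 in the shortest of 10 equal classes of genes and -0.38 in the longest, against 0.09 and -0.15 in c-RelKO. Across these genes the rank correlation with length was -0.51 for the library labelled p65KO, -0.15 for c-RelKO and -0.01 between the WT libraries; genes are not independent replicates. Against its resting partner, p65KO Treg replicate 3, the same trend was seen, 0.37 to -0.39. The higher genes had a median length of 1915 bases and the lower ones 5328 bases, with 3038 bases over all. Measured relative to genes of like length, 231 genes were past the fold higher and 151 lower, of which 220 and 83 were shared with the sets above. Of 27 interferon-stimulated genes 5 were past the fold higher (Ifit3, Oasl2, Bst2, Gbp2 and Zbp1), and 1 relative to genes of like length. As in c-RelKO, 25 of the 27 differed upwards from WT replicate 2, and none was past the fold lower. Their median was 0.43, beside 0.15 over all genes, and 0.33 relative to genes of like length. The part of the length trend in the value of each gene was not tested.

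**Figure D4:**
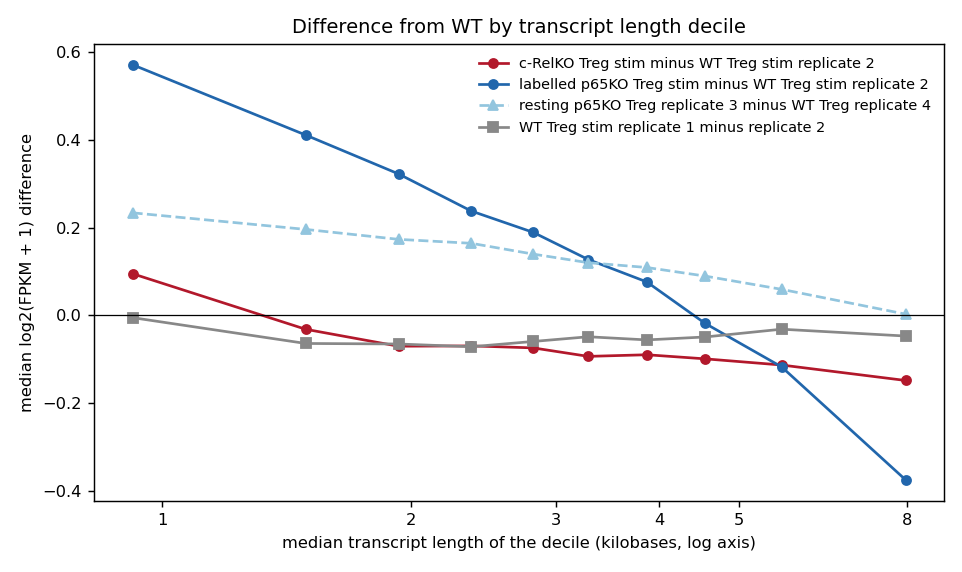
Median difference of log2(FPKM + 1) in each of 10 equal classes of genes by transcript length, from the shortest to the longest, for c-RelKO and the library labelled p65KO against WT Treg stim replicate 2, for p65KO Treg replicate 3 against WT Treg replicate 4, both resting, and for WT Treg stim replicate 1 against 2. The line of the library labelled p65KO starts at 0.57 and ends at -0.38; the other 3 lines stay within 0.25 of 0.

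Cell cycle genes were the most uniform group in the library labelled p65KO: 23 of 28 were past the fold higher, all 28 differed upwards and the median was 1.59. WT replicate 1 itself lay below replicate 2 here, with 9 of 28 past the fold lower and a median of -0.77. Birc5 (survivin), needed for chromosome segregation, had 86.8 FPKM in the library labelled p65KO, against 14.2 and 6.31 FPKM in WT, 2.53 and 3.59 higher. Cdk1, the kinase of mitotic entry, had 26.9 FPKM, against 6.101 and 2.57 FPKM in WT. Mki67, the proliferation marker, had 38.0 FPKM, against 16.7 and 6.81 FPKM in WT, and Top2a, a topoisomerase of dividing cells, had 78.0 FPKM, against 26.6 and 12.96 FPKM. The count was 20 of 28 relative to genes of like length and 20 with size factors. c-RelKO did not stand apart, with Cdk1 at 7.13 FPKM. In the resting p65KO pairs 13, 0 and 5 of the 23 were past the fold higher, with 1.78%, 0.373% and 1.85% of all genes so.

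The gene with the largest difference was S100a6 (chr3:90416816-90418336, mm9), a calcium-binding protein of effector and memory T cells. It had 252 FPKM in the library labelled p65KO, against 32.1 and 37.2 FPKM in WT, 2.94 and 2.73 higher, and 27.3 FPKM in c-RelKO. In resting p65KO Treg it had 407, 275 and 125 FPKM, against 137, 110 and 38.5 FPKM in the WT partners. Gzmb, the cytotoxic protease granzyme B that effector Treg also make, had 254 FPKM in the library labelled p65KO, against 36.1 and 16.6 FPKM in WT, 2.78 and 3.86 higher. At rest Gzmb had 107, 106 and 156 FPKM in p65KO, against 24.9, 17.3 and 32.3 FPKM in WT. Both genes were thus above WT in every p65KO library measured.

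Nkg7, a protein of cytotoxic granules, had 59.3 FPKM in the library labelled p65KO, against 7.26 and 5.07 FPKM in WT, and Lgals3, a galectin of activated cells, had 42.6 FPKM, against 5.97 and 2.85 FPKM. Gzma had 11.8 FPKM, against 1.302 and 0.528 FPKM in WT. Nkg7 and Gzma are also markers of NK and CD8 T cells, and 2 of the 3 such markers that could be compared were past the fold higher. The myeloid gene Lyz2 had 19.7 FPKM in the library labelled p65KO, against 6.39 and 1.04 FPKM in WT, and summed myeloid markers were 152 FPKM, against 83.2 and 57.7 FPKM. The part of other cells in these values was not tested. Cxcr3, the receptor that guides type 1 Treg, had 87.5 FPKM, against 19.6 and 30.01 FPKM in WT, and Itgae (CD103), which binds epithelial cadherin, had 37.7 FPKM, against 14.8 and 17.8 FPKM. Of 21 chemokine receptor and homing genes these were the 2 past the fold higher, and 2 were lower. Ccr6, the receptor of Ccl20, had 12.7 FPKM, against 37.0 and 32.5 FPKM in WT, and Gpr183, an oxysterol receptor that guides cells in follicles, had 19.3 FPKM, against 45.4 and 46.4 FPKM. Of the 39 genes of the Treg signature, 5 were past the fold higher (Gzmb, Itgae, Lgals1, Gbp2 and Socs2), 2 relative to genes of like length, and 3 lower. The lower ones were Il10, Nt5e, an enzyme that makes adenosine, and Itgb8, an integrin chain with which Treg activate TGF-beta, at 19.5 FPKM, against 54.8 and 55.7 FPKM in WT. Ly6a had 281 FPKM and was thus above WT in both knockouts. Rpl34-ps1, also among the 12 highest, is a pseudogene whose reads may not be separable from those of Rpl34, so its value is uncertain.

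**Figure D5:**
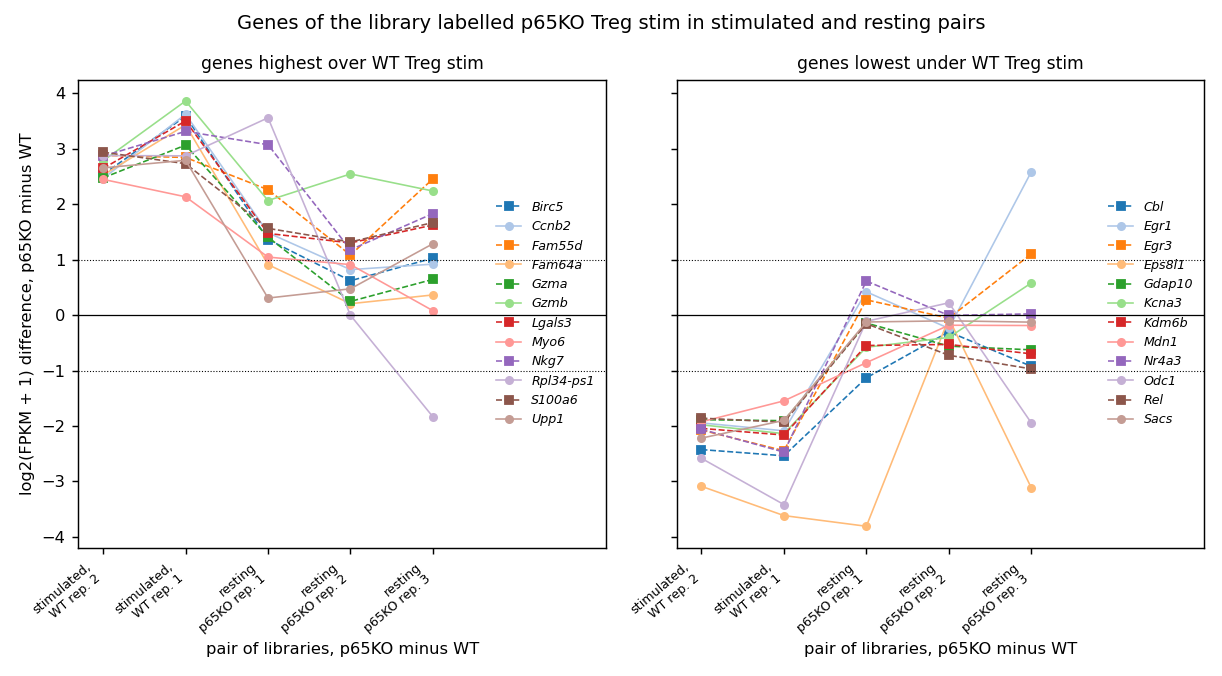
Difference of log2(FPKM + 1) of p65KO from WT for the 12 highest and the 12 lowest genes of the library labelled p65KO, in the stimulated comparison with WT replicates 2 and 1 and in 3 resting pairs. Of the 12 highest genes 10, 5 and 7 are past the fold in the resting pairs; of the 12 lowest, 2, 0 and 2.

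In all, 99 of the 438 higher genes (22.6%) were past the fold higher in the first resting p65KO pair, where they made 54.4% of its 182. In the second pair it was 16 (3.65%; 42.1% of its 38) and in the third 64 (14.6%; 33.9% of its 189). Pairs 1 and 2, which leave out p65KO Treg replicate 3, shared 9 of the 438 out of the 16 genes higher in both. In all 3 pairs there were 7 out of 13: Fam55d, Gzmb, Lgals3, Ly6a, Nkg7, S100a6 and a predicted gene. Of the 139 lower genes, 10 (7.19%) were past the fold lower in the first pair, 4 (2.88%) in the second and 16 (11.5%) in the third, beside 0.873%, 0.275% and 0.657% of all genes. They made 11.2%, 14.3% and 23.9% of the genes lower in those pairs, and 1 gene, Cd83, was lower in all 3. The first pair also differs in sex, with 0.108 FPKM of Xist in p65KO Treg replicate 1 and 131 FPKM in WT Treg replicate 1. B cell markers summed to 27.6 FPKM in that p65KO library and 75.2 FPKM in its WT partner.

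Among the gene lists, early response genes had the most members past the fold lower by count. Shorter lists had a like or larger share, with 5 of 19 cytokines, 2 of 7 T cell chemokines and 2 of 5 NF-kB subunits. The early response genes made a small part of the 139 lower genes, which as a set had long transcripts. Of the 34 early response genes used for the label check, 9 were past the fold lower with a median of -0.72; 3 were so when resting WT replicates 3 and 4 were also required, and against resting WT replicate 4 the median was -0.41. Egr3, which restrains T cell activation, had 14.9 FPKM in the library labelled p65KO, against 66.0 and 85.8 FPKM in WT. Nr4a3, a nuclear receptor that receptor signals induce, had 140 FPKM, against 586 and 779 FPKM in WT, and against 410 FPKM in resting WT replicate 4. Odc1, the rate-limiting enzyme of polyamine synthesis, had 63.1 FPKM, against 383 and 683 FPKM in WT, 2.58 and 3.42 lower, and p65KO Treg replicate 3 had 78.9 FPKM, against 306 FPKM in resting WT. Kdm6b, a histone demethylase, had 36.4 FPKM, against 153 and 166 FPKM in WT. Eps8l1 was at 0.021 FPKM, against 7.68 and 11.5 FPKM in WT, but it was also below 1 FPKM in resting WT replicate 2. Of the 19 cytokines 5 were past the fold lower (Il2, Il10, Il13, Il17a and Areg) with a median of -0.64; against resting WT replicate 4 the median was 0.00.

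Among the NF-kB subunits, Rel had 77.4 FPKM in the library labelled p65KO, against 283 and 298 FPKM in WT, and Relb had 48.2 FPKM, against 107 and 98.8 FPKM. Both were past the fold, 2 of 5 subunits, and the median was -1.13. Resting p65KO had 24.6, 120 and 128 FPKM of Rel, against 27.5, 200 and 252 FPKM in the WT partners. Targets of NF-kB were also set beside resting WT. Icam1, an adhesion molecule with a kB site, had 30.2 FPKM, against 102 and 74.99 FPKM in stimulated WT and 105 FPKM in resting WT replicate 4, 1.72, 1.28 and 1.76 lower. Cd83, an activation marker, had 96.0 FPKM, against 325 and 224 FPKM in stimulated WT, and was 1.51 lower than in resting WT replicate 4.

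Both were also lower in resting p65KO Treg. Cd83 had 29.5, 142 and 122 FPKM there, against 64.4, 307 and 276 FPKM in WT, and Icam1 had 31.1, 21.6 and 26.8 FPKM, against 36.0, 49.1 and 105 FPKM. Egr1 differed by 0.03 from resting WT replicate 4. Tnfaip3 (A20), an NF-kB feedback inhibitor, had 266 FPKM in the library labelled p65KO, against 644 and 982 FPKM in WT. Of 30 NF-kB targets 4 were past the fold lower (also Bcl2a1b and Gadd45b), none higher, with a median of -0.46; against resting WT replicate 4 the median of the list was -0.18. Against resting WT replicates 3 and 4 in place of stimulated WT, 394 genes were past the fold higher and 116 lower, and 342 and 86 were so against all 4 WT libraries.

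With p65KO Treg replicate 3 put in place of the library labelled p65KO, a comparison chosen after seeing the data, 139 genes were past the fold higher than stimulated WT (1.36%) and 27 lower (0.265%). Cell cycle genes were then higher at 10 of 28, with a median of 0.90, and NF-kB targets lower at 2 of 30 (Icam1 and Gadd45b) and higher at 1. Early response genes were lower at 2 of 34, with a median of -0.34. Cytokines, which were lower at 5 of 19 in the library labelled p65KO, were lower at 0 and higher at 3 (Il3, Il4 and Il22). Rel, Odc1 and Tnfaip3 were past the fold lower in either library.

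The knockout libraries were last set against each other, with no WT library in the comparison. c-RelKO was past the fold above the library labelled p65KO at 282 genes (2.76%) and below it at 1039 (10.2%). With size factors the counts were 508 and 636, since the all-gene median was -0.27. Cytokines were higher in c-RelKO at 13 of 19, with a median of 2.38, and early response genes at 14 of 34, with a median of 0.89. Cell cycle genes were lower in c-RelKO at 21 of 28, with a median of -1.64. Cd40lg, the ligand by which helper T cells activate B cells, had 147 FPKM in c-RelKO and 19.7 FPKM in the library labelled p65KO, with 56.7 and 97.0 FPKM in WT. Since the stimulation label of one library is in doubt, a difference between the genotypes and one between stimulated and unstimulated cells cannot be told apart here.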

How the data were processed

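RNA of 4 stimulated Treg libraries was analysed, with 13 resting and DKO libraries of the series beside them. Qiagen RNeasy kits and an Illumina TruSeq kit were used, per the labels' protocols. The authors deposited Cufflinks gene tables with FPKM values and confidence bounds, per the file headers; the submitters' processing notes name bcl2fastq, TopHat, Cufflinks and build mm9. Tool versions, annotation and strandedness were not given in the sources used here. No read counts are in the files, so depth was estimated from the bounds; 72.0% to 73.8% of implied numbers under 15 were within 0.02 of a whole number. Near-identical or overlapping genes are uncertain.

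Of the symbols, 23003 were kept, 232 with an entry not marked OK were left out, and 183 with several entries were summed. Genes with a mean of at least 1 FPKM over the 4 libraries were compared as log2(FPKM + 1), 10199 in all, with Python 3.11.15, pandas 2.3.3, numpy 2.4.6 and matplotlib 3.10.9; the steps were tested on simulated data. Nothing in the labels says whether replicates came from separate animals.

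Named genes are Rel, Rela and Foxp3, the 12 largest differences in each direction with at least 5 FPKM, up to 4 of each of 31 gene lists (500 of 509 symbols found), and members of a list past the fold. Members and lists were chosen with earlier results of these data known. Promoters are from RefSeq on GRCm38.p6 and transcript lengths from GENCODE on GRCm38; neither is the build of the files, so they were joined by symbol. Alternatives were other pseudocounts, filters, folds, scalings and WT references.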

Additional observations from a re-analysis of the deposited data

Results flagged for a closer look

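The 34 early response genes had a mean difference of -0.46 between the library labelled p65KO Treg stim and p65KO Treg replicate 3, while the same mean was 0.38 in c-RelKO, 0.35 in WT replicate 2 and 0.22 in WT replicate 1. The sign is opposite to that of the other pairs, the stimulation label of this library is in doubt, and with 1 pair per genotype the difference was not tested.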

How the results depend on the processing

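With 1 library per knockout, spread, animal and preparation cannot be told apart from genotype, and only differences past the fold from both WT libraries were counted. No paired analysis was possible because the knockout groups have 1 library each. Of the recomputed counts, 53 stayed within 1.5 times the first value and 31 did not. A pseudocount of 0.1 FPKM gave 370 genes lower in c-RelKO, 228 lower in the library labelled p65KO and 190 between the WT libraries. A pseudocount of 5 FPKM gave 38 higher and 69 lower in c-RelKO, 202 and 61 in the library labelled p65KO, 13 lower between the WT libraries, and 144 and 432 for c-RelKO against the library labelled p65KO. A fold of 3 gave 32 and 37, 128 and 23, 74 and 14 (WT), and 75 and 278 in the same order. A filter at 5 FPKM left 284 higher in the library labelled p65KO. Size factors gave 235 lower there, and 508 and 636 between the knockouts. Using 1 WT library in place of 2 gave 84 to 162 higher and 274 to 432 lower genes in c-RelKO, and 542 to 766 higher and 215 to 342 lower in the library labelled p65KO; the wider counts are those without WT replicate 2. Chosen after seeing the data, requiring all 4 WT libraries of resting and stimulated cells left 86 lower in the library labelled p65KO, and differences relative to genes of like length left 231 higher; p65KO Treg replicate 3 in place of that library gave 139 higher and 27 lower. No early response gene was past the fold higher in the pair labelled p65KO under any of the settings run. Genes under about 1 FPKM rest on few fragments, and their differences are limited by depth.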
